A study of Mus musculus with 23 samples.

Results

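The levels of 3 genes of the Myc family, Myc, Mycn and Max, were examined in bulk RNA-seq of 23 primary mammary tumors of mice, 1 library per tumor, among 14535 genes with values. The genes were chosen by their measured values: Myc because 1 tumor, X154T, stood far above the rest, Mycn because only a few tumors expressed it, and Max as the shared partner of both. Those patterns are therefore described here without a test. Per the labels all tumors were Brca1-deficient and came from mice of a mixed strain. The study's methods describe conditional Brca1 fl/fl alleles deleted by Cre under the MMTV promoter, which acts in mammary epithelium among other tissues, with or without 1 floxed Trp53 allele. Which tumor carried which alleles, the age of the mice and the treatment, if any, are not in the labels. The study shows the genotype of its tumors in a figure, but it was not used here. All 23 tumors form 1 group with no normal tissue beside it.

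Myc and its paralog Mycn are transcription factors that bind DNA as dimers with Max, mostly at the E-box CACGTG, and promote the expression of genes for ribosome assembly, nucleotide synthesis and growth. Max also pairs with the Mxd proteins, Mxi1, Mnt and Mga, which repress many of the same genes. Myc is frequently gained in human breast cancers that lack BRCA1, and Mycn is best known from neuroblastoma, where it is amplified.

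Levels are log2(FPKM + 1), where FPKM is fragments scaled by transcript length and library total. The table holds no counts, so the depth behind each value is unknown, and a gene may be listed at 0 because its estimate failed. Between 11829 and 12863 genes per tumor had values above 0, and the summed FPKM ran from 387531 to 1677863, the highest in X149T2. The labels do not state whether each tumor is from another mouse. Their titles hold 19 distinct numbers, and 4 numbers are shared by a pair of tumors each.

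Myc (ENSMUSG00000022346; chromosome 15, 61985391 to 61990374, plus strand, GRCm38) was expressed in every tumor. Its mean was 6.03 ± 1.07 (SD, n = 23), with a lowest level of 4.78 in X1463T2, a median of 5.94 and a highest level of 10.28 in X154T. The next tumor, X493T2, was at 6.89, so 3.39 log2 units separated X154T from the nearest of the others. In FPKM, X154T reached 1244, 22.2-fold the median of the other 22 tumors and 10.6-fold the next. The genes tested below are the 12041 whose FPKM averaged at least 1, and of these 0.274% had as wide a gap between their highest tumor and the next, and Myc ranked 33rd. Without X154T the mean was 5.83 ± 0.55 (SD, n = 22).

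The other 22 tumors thus formed a continuous and narrow range. The SD of Myc lay at percentile 80.67 of all genes tested with X154T and at percentile 24.49 without it. After X154T and X493T2 came X520T at 6.78, X493T1 at 6.62 and X1418T at 6.32. At the low end X149T2 was at 4.86 and X1310T1 at 5.29. With 1 library per tumor there is no replicate error for neighbours in this order. Tumors sharing a title number differed in Myc by 1.23 (X149T1 and X149T2), 0.27 (X493T1 and X493T2), 0.89 (X1310T1 and X1310T2) and 0.57 (X1463T1 and X1463T2), beside a median difference of 0.617 over all 253 pairs of tumors.

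Mycn (chromosome 12, 12936093 to 12941914, minus strand) was listed at 0 in 15 of 23 tumors. At an FPKM of 1 or more it was expressed in 2, X1418T at 3.26 and X149T2 at 2.87. The next were X731T at 0.86, X149T1 at 0.35, X370T at 0.27 and X9387T at 0.24. X1418T, the highest, had an FPKM of 8.60, far under the Myc level of any tumor. X149T2, with the second-highest Mycn, had the second-lowest Myc, while X1418T ranked 5 of 23 in Myc. The tumor sharing its title number with X149T2, X149T1, stood at 0.35 for Mycn and 6.09 for Myc. In X154T, Mycn was listed at 0.

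Max (chromosome 12, 76937269 to 76962201, minus strand) was even across tumors, with a mean of 4.84 ± 0.36 (SD, n = 23), from 4.18 in X1463T2 to 5.53 in X493T2, and a median of 4.90. Its SD lay at percentile 2.05 of the genes tested. X154T was at 5.05, within the range of the others. Of the 3 genes, Myc and Max passed the filter on mean FPKM, and Mycn, with a mean FPKM of 0.715, did not.

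**Figure D1:**
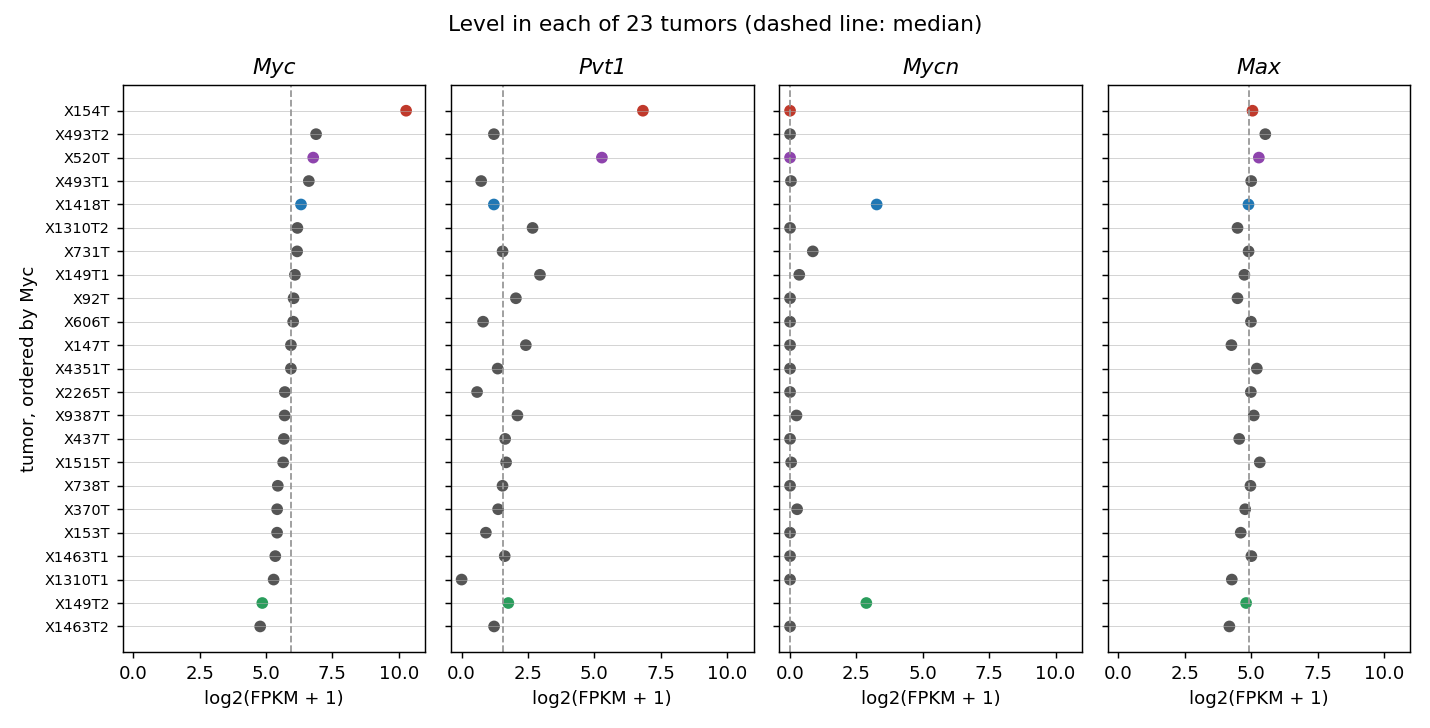
Level of Myc, the neighbouring RNA Pvt1, Mycn and Max (x axes, log2(FPKM + 1)) in each of 23 tumors (y axis, ordered by Myc; dashed lines are medians). X154T (red) stands alone for Myc at 10.28 and is joined by X520T (purple) for Pvt1, while X1418T (blue) and X149T2 (green) are the only tumors above 0.86 for Mycn.

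The other members of the network were expressed at low to moderate levels, and none had its highest tumor as far from the rest as Myc. Mycl, another proto-oncogene of the family, was listed at 0 in 14 tumors and reached 2.22 in X731T. Bmyc, a rodent gene whose product resembles the amino-terminal part of Myc, was lowest in X154T at 1.03 and next lowest at 2.16, with a median of 3.95 and a highest level of 5.83 in X149T2. The tumor with the highest Myc was therefore the one with the lowest Bmyc. Among the repressive partners, Mxd1 ran from 2.28 to 6.09, Mxd3 from 0.43 to 4.44 and Mxd4 from 3.57 to 6.57. Mxd1 in X154T (5.45) and X1418T (5.31) lay 2.08 and 1.94 above the median of the other tumors. Mxi1 (3.06 to 4.44), Mnt (2.14 to 4.0) and Mga (1.20 to 3.56) varied less than Mxd1. Mlx, which pairs with the sugar-responsive factors Mlxip and Mlxipl, ran from 2.67 to 5.15 and Mlxip from 2.97 to 4.96, while Mlxipl was listed at 0 in 18 tumors.

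The neighbourhood of Myc on chromosome 15 was looked at next, as the 10 nearest genes in the table on each side. Pvt1, a long non-coding RNA gene that starts 0.053 Mb from the start of Myc, was at 6.83 in X154T and at 5.28 in X520T. In the other 21 tumors it lay between 0 and 2.95, with a median of 1.54. So both tumors were clear of the rest for Pvt1, but X520T, at 6.78, was within the range of the others for Myc. X154T was the highest tumor at 1 of the 20 neighbours, Pvt1, and at 2.56% of all genes tested. Across the 20 neighbours the median difference between X154T and the median of the other tumors was -0.06.

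On the side of Myc away from Pvt1, the nearest neighbours were low in X154T. Fam84b, 1.17 Mb from Myc, was listed at 0 in X154T alone, with a median of 3.15 over all tumors. 9930014A18Rik, 1.16 Mb away, was listed at 0 in 3 tumors, X154T among them, at a median of 1.80. It lies within the span of Fam84b, so these genes are not separate loci. Trib1, a pseudokinase gene 2.34 Mb away, was lowest of 23 tumors in X154T at 4.69, beside a median of 5.6. The 7 genes beyond these lay in X154T between -0.6 and 0.53 of the median of the others. X154T was the lowest tumor at 2.76% of all genes tested. Trps1, a transcriptional repressor gene of mammary epithelium also on chromosome 15, was at 0.20 in X154T and at 2.40 in the next lowest tumor; it was singled out after its values were seen.

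Around Mycn the picture differed between the tumors that expressed it. X1418T was the highest of 23 tumors at 8 of the 20 nearest genes of Mycn on chromosome 12, and at 2.87% of all genes tested. These were Laptm4a, Rdh14, Gen1, Smc6, Fam49a, Ddx1, Nbas and Fam84a, which begin between -4.01 and 1.21 Mb from the start of Mycn. Gen1 and Fam49a, like some other neighbours, were under the filter on mean FPKM, while the 2.87% is over genes that passed it. Fam49a, 0.674 Mb away, was at 3.05 in X1418T and at 1.30 in the next tumor, X149T2. Ddx1, an RNA helicase gene that is often amplified together with MYCN in human neuroblastoma, was at 6.70 in X1418T and at 5.86 in the next tumor. Fam84a was at 5.79 against 4.90 in X520T. Nbas, named for its amplification in neuroblastoma, was at 2.65 in X1418T, with 2.49 in X9387T, so that here the highest tumor was barely apart. The 7 neighbours farthest on the other side, from Trib2 at 2.86 Mb onward, lay in X1418T between -0.64 and 0.36 of the median of the other tumors.

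X149T2 did not share this pattern. It was the highest tumor at 0 of the 20 neighbours of Mycn and at 6.54% of all genes tested, and its Ddx1 (5.34) and Nbas (1.28) lay among the other tumors. X9387T, with little Mycn (0.24), was the highest tumor at 5 of the 20, among them Greb1, E2f6, Pqlc3 and Kcnf1. Greb1 and Kcnf1 were under the filter on mean FPKM. The share of all genes at which X9387T was highest was not counted, so whether 5 of 20 is many for it is unknown. DNA copy number was not measured.

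**Figure D2:**
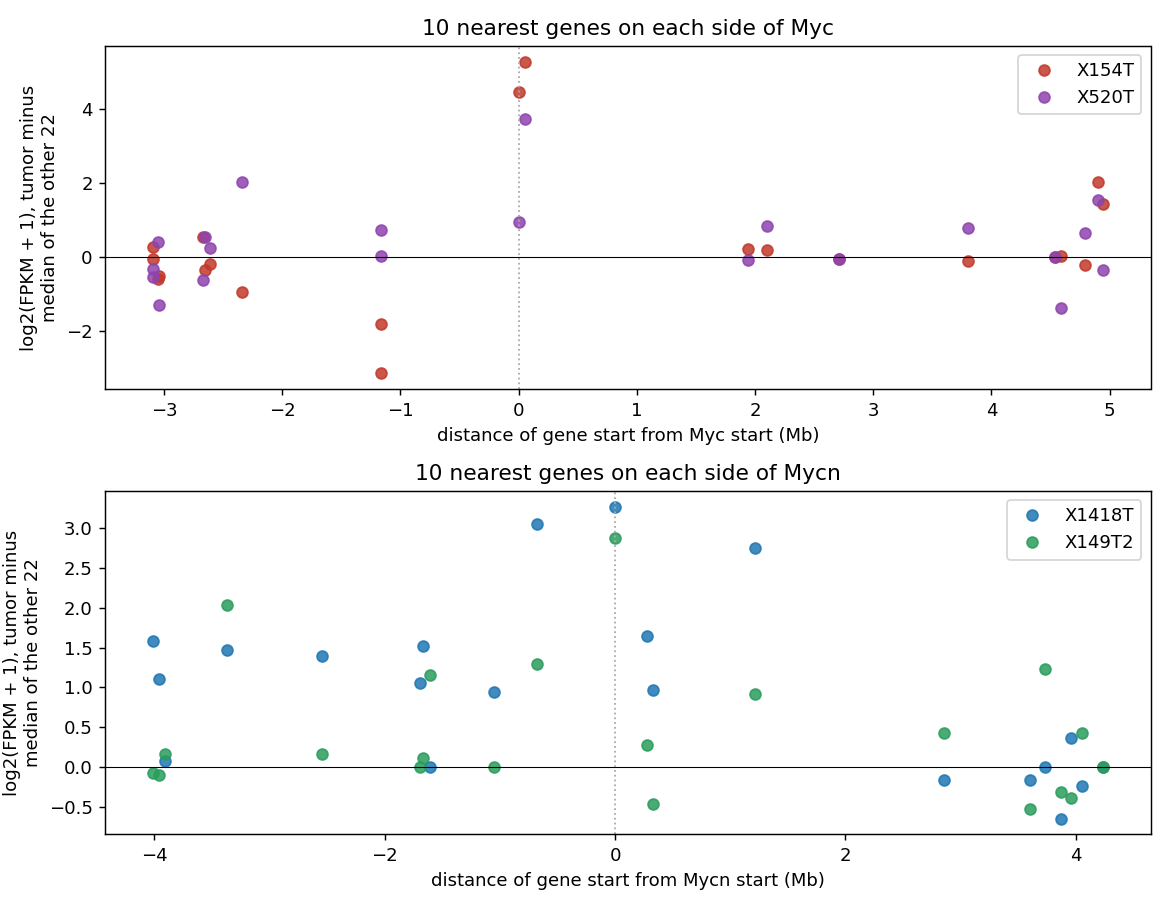
Difference between 1 tumor and the median of the other 22 (y axes, log2(FPKM + 1)) for the 10 nearest genes on each side of Myc (top, X154T and X520T) and Mycn (bottom, X1418T and X149T2), by distance between gene starts in Mb (x axes). In X154T only Myc and Pvt1 exceed 4, and 2 overlapping genes 1.16 and 1.17 Mb to the left fall by 1.81 and 3.15. In X1418T 8 neighbours of Mycn are the highest of all tumors.

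The question whether Myc moved with growth genes was asked with gene lists. Ribosome biogenesis genes encode factors that process ribosomal RNA and assemble ribosomal subunits. In X154T, 49 of the 56 genes of this list lay above the median of the other tumors, beside 5572 of 12041 genes tested, and the median difference was 0.39, beside -0.03 for all genes. Lyar, a nucleolar protein gene, was highest in X154T at 5.56, with X520T at 5.52. Rrp9, of the U3 particle that processes ribosomal RNA, was at 5.04 against a median of 4.09. By its mean z value over the list, X154T ranked 3 of 23 tumors, behind X520T and X2265T. X520T was the highest tumor at 12 of the 56 genes and at 7.33% of all genes tested.

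Genes that Myc is known to induce in metabolism and growth were also high in X154T, with 26 of 38 above the median of the others, a median difference of 0.50 and a list rank of 3. Hk2, which encodes the glycolytic enzyme hexokinase 2, was highest in X154T at 6.03, 2.2 above the median of the others. Ppat, of purine synthesis, was highest as well, at 3.16, but X520T was at 3.08. Odc1, the first enzyme of polyamine synthesis, was at 8.51 and second to X1310T2 at 8.55. Of the genes that Myc is known to repress, Cdkn1b, a cell cycle inhibitor, was lowest in X154T at 3.76, with 3.87 in the next tumor. The list as a whole lay higher rather than lower in X154T, with 9 of 12 genes above the median of the others and Cdkn2b at 6.01, second to X520T at 6.06.

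Cytosolic ribosomal protein genes in X154T stayed near the other tumors, with 47 of 81 above the median and a median difference of 0.07. Proliferation genes had 27 of 35 above it and a median difference of 0.33, and the tumor ranked 8 for this list and 12 for ribosomal proteins. Rrm2, a subunit of ribonucleotide reductase, was highest in X154T at 5.0, 0.03 above the next tumor. Mki67 was at 3.91 and Top2a at 5.28, within the range of the others.

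Markers of other cell types moved with X154T as well. All 12 fibroblast genes lay above the median of the others, at a median difference of 2.04, and X154T ranked first for this list, with Dpt at 5.77 (next 3.37) and Col1a1 at 10.16. In the mesenchymal list 22 of 25 genes were above, and in the basal list 7 of 9, where Krt14 was highest at 9.84. By contrast 1 of 10 luminal progenitor genes was above, at a median difference of -3.0, with Kit and Elf5 listed at 0. All 4 hemoglobin genes were below. The epithelial list differed by -0.53, and Epcam was at 6.97. The part of these cells in the levels of Myc and its targets was not tested, and in bulk samples fewer cells of a type cannot be told apart from less RNA per cell.

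**Figure D3:**
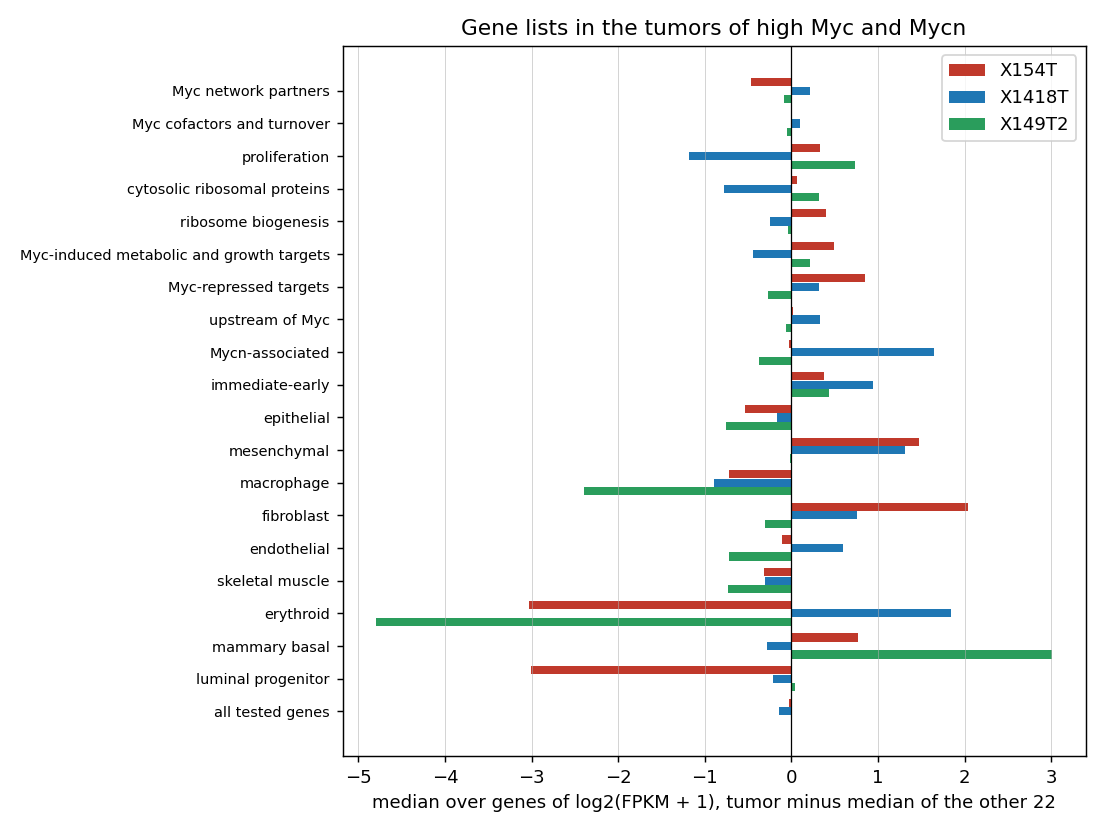
Median over the genes of each list of the difference between 1 tumor and the median of the other 22 (x axis, log2(FPKM + 1)) in X154T (red), X1418T (blue) and X149T2 (green), with all tested genes at the bottom. X154T is high for fibroblast genes (2.04) and low for luminal progenitor genes (-3.0), and the bars of X1418T and X149T2 for proliferation point in opposite directions (-1.19 and 0.73).

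The tumors that expressed Mycn differed in the same lists. In X1418T, 0 of 35 proliferation genes lay above the median of the other tumors, beside 4817 of 12041 genes tested. The median difference was -1.19, beside -0.14 for all genes, and the tumor ranked 22 of 23. Of 81 ribosomal protein genes 2 were above it and 23 were lowest of all tumors, beside 4.68% of all genes tested, and the list rank was 23. In X149T2, 32 of 35 proliferation genes were above the median of the others, beside 6034 of 12041 genes tested. The median difference was 0.73, beside 0.002 for all genes, and X149T2 ranked 2. Its ribosomal protein genes had 58 of 81 above. X149T2 also had 9 of 9 basal genes above the median, 0 of 17 macrophage genes and 0 of 4 hemoglobin genes. X1418T had 2 of 9, 1 of 17 and 3 of 4.

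Promoter windows of the annotation were searched for CACGTG, which reads the same on both strands. The windows hold 250 bases before and 50 after each gene start. Of 32851 windows 7.15% held the motif, and of those of the genes tested 9.84%. Among the Myc-induced list 15 of 48 windows did (31.2%, 34 genes matched), among ribosome biogenesis genes 10 of 59 (16.9%, 50 genes), among ribosomal protein genes 8 of 71 (11.3%, 60 genes) and among proliferation genes 1 of 30 (3.33%, 28 genes). The window of Max held 1 and that of Mycn none. A match describes the letters of the window and does not show binding.

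The windows printed here are those of Phb and Nme1, which had the largest slopes on Myc, defined below, among genes of the growth lists whose window held the motif. Phb encodes prohibitin, of the inner mitochondrial membrane, and Nme1 a nucleoside diphosphate kinase. They are from RefSeq on GRCm38.p6, at chr11:95666707-95667006 on the plus strand for Phb and chr11:93968223-93968522 on the minus strand for Nme1, written 5′ to 3′ with the motif in capitals. It begins 232 bases before the start of Phb and 18 bases before that of Nme1.
Phb: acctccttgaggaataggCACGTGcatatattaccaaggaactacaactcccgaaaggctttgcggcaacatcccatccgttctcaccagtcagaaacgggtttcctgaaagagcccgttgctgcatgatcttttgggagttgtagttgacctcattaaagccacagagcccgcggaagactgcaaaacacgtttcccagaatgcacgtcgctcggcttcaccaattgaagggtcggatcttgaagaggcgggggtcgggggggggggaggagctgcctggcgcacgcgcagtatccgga
Nme1: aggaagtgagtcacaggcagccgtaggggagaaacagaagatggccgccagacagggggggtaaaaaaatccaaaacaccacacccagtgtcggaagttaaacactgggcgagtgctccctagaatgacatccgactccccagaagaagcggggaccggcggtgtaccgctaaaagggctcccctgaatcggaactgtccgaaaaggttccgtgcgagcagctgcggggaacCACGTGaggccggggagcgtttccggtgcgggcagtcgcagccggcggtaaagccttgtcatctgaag
Phb was at 6.81 in X154T, 7.22 in X520T and 4.95 in X1418T, with a range of 4.94 to 7.22 over all tumors. Nme1 was at 7.13, 7.25 and 5.10 in these tumors, with a range of 4.82 to 7.25. Both genes were thus near the top of their range in X154T and near the bottom in X1418T. As they were chosen for their slope on Myc, their level in X154T follows in part from that choice and is a description. Neither slope passed the threshold (limma), at 0.314 ± 0.132 (SE, adjusted p = 0.753) for Phb and 0.296 ± 0.121 (SE, adjusted p = 0.747) for Nme1.

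Relations across the tumors were measured for 18 pairs of a Myc family gene with a list score or with another member, where a list score is the mean z value of its genes. None passed the threshold after adjustment over the 18. The nearest for Myc was the score of ribosome biogenesis genes, at r = 0.441 (permutation p = 0.0231) and Spearman's rho = 0.509 (permutation p = 0.0139). It had an adjusted p of 0.407 for r and 0.249 for rho, and r = 0.417 without X154T and X1463T2, the tumors farthest from the median of Myc. For proliferation r was 0.129 (permutation p = 0.519), rho was 0.135 (permutation p = 0.535), the adjusted p was 0.927 and r was 0.000994 without the same tumors. For ribosomal proteins r was 0.0401 (permutation p = 0.863), rho was -0.0257 (permutation p = 0.909), the adjusted p was 0.927 and r was 0.178 without them. Myc and Max were related at r = 0.352 (permutation p = 0.102) and Spearman's rho = 0.383 (permutation p = 0.0711). After adjustment p was 0.509, and r was 0.38 without the same tumors.

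The immediate-early score, which rests on stimulus-induced genes such as Fos, parts the tumors into 8 with low and 15 with high values, so no pooled value is given for it. Myc lay between 5.45 and 6.89 in the 8 tumors, at a median of 5.98, and between 4.78 and 10.28 in the 15, at a median of 5.7. The upper end of the 15 is X154T alone, and X1418T at 6.32 was the next of them. X493T2, X520T and X493T1, at 6.89, 6.78 and 6.62, were all among the 8. Within the 8 tumors Myc and this score had r = 0.095 (exact permutation p = 0.835) and rho = -0.0952 (exact permutation p = 0.84). Within the 15 r was 0.0303 (permutation p = 0.932) and rho was 0.332 (permutation p = 0.224). For Max r was 0.0126 in the 8 (exact permutation p = 0.977) and 0.0948 in the 15 (permutation p = 0.732). None of the 12 values within sets passed the threshold after adjustment over them. For Myc and ribosome biogenesis r was 0.556 in the 15 tumors (permutation p = 0.0133, adjusted p = 0.159) and 0.33 without X154T and X1463T2. In the 8 tumors it was 0.012 (exact permutation p = 0.977). For Myc and ribosomal proteins r was 0.739 in the 8 tumors (exact permutation p = 0.0366, adjusted p = 0.17), 0.556 there without X493T2 and X520T, and -0.0581 in the 15 (permutation p = 0.867). Myc and Max had r = 0.701 (exact permutation p = 0.0424, adjusted p = 0.17) and rho = 0.905 (exact permutation p = 0.00456) in the 8 tumors, and r = 0.285 there without X493T2 and X520T. In the 15 tumors r was 0.309 (permutation p = 0.286). Differences between the sets were not tested. No sequencing batch is given in the labels, so no relation could be measured within one.

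**Figure D4:**
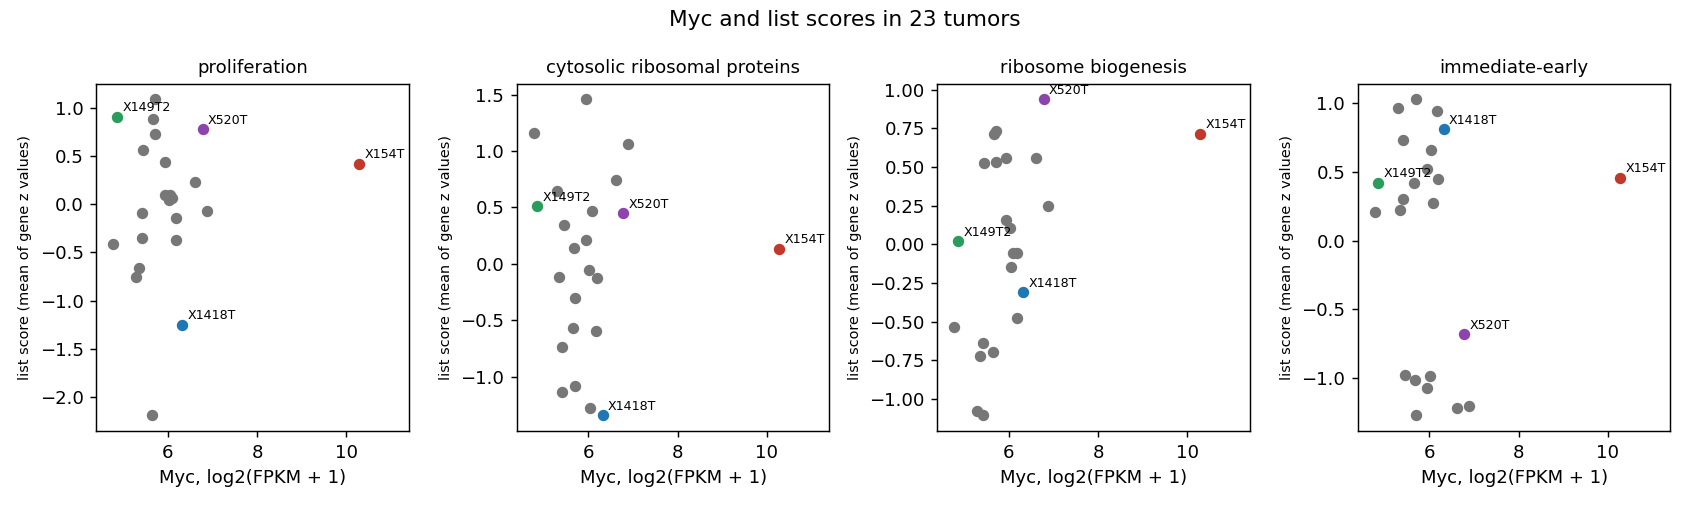
Score of each of 4 gene lists (y axes, mean z value of the genes) against Myc (x axes, log2(FPKM + 1)) in 23 tumors, with X154T, X520T, X1418T and X149T2 named. X154T lies apart on the x axis at 10.28 without the highest score in any panel, and r is 0.441 for ribosome biogenesis, 0.129 for proliferation and 0.0401 for ribosomal proteins.

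Mycn showed no relation past the threshold to proliferation (r of -0.122 with permutation p = 0.557, rho of -0.172 with permutation p = 0.434, adjusted p = 0.927) or to ribosomal proteins (r of -0.243 with permutation p = 0.271, rho of -0.275 with permutation p = 0.2, adjusted p = 0.812). The r without X1418T and X149T2 was -0.115 for proliferation and -0.281 for ribosomal proteins, over tumors nearly all at or close to 0. Mycn and Myc had an r of -0.118 with permutation p = 0.431, a rho of 0.0232 with permutation p = 0.917 and an adjusted p of 0.927, and without X154T and X1463T2 r was -0.141. The other 9 pairs with pooled values had adjusted p-values from 0.509 to 0.927.

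Slopes of all genes on each member were then fitted with limma, as the change in log2(FPKM + 1) per log2 unit of the member. For Myc, 4 genes rose (0.0332% of those tested) and none fell (0.0%) at an adjusted p under 0.05, with 788 at an unadjusted p under 0.05. These calls set X154T, the tumor for which Myc was chosen, against the rest, and are given as a description. They were Bfsp1, which encodes a filament protein of the eye lens, with a slope of 1.06 ± 0.15 (SE), the small nucleolar RNA gene Gm24148 (1.23 ± 0.18), the placental gene Plac1 (0.78 ± 0.14) and Pvt1 (1.04 ± 0.19). Bfsp1 was at 6.38 there and at most at 0.55 elsewhere, and Plac1 was at 4.93 and at most 0.79. Gm24148 was at 6.48 in X154T and 4.20 in X493T2, and listed at 0 in the other 21 tumors. Bfsp1, Plac1 and Gm24148 passed the filter on mean FPKM only through X154T. Without X154T no gene passed the test (limma, 2258 at an unadjusted p under 0.05). The slope was then -0.03 ± 0.17 (SE) for Bfsp1 and -0.16 ± 0.18 for Plac1, while that of Gm24148 was 0.69 ± 0.34 (adjusted p = 0.273) and that of Pvt1 0.70 ± 0.39 (adjusted p = 0.326). Leaving out each tumor in turn gave 0 to 9 rising genes, the 9 without X1515T. Pvt1 passed in 12 of these 23 fits and Plac1 in 17, while Bfsp1 and Gm24148 each passed in 22.

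No gene of the growth lists passed this test. By chromosome 27.2% to 70.2% of all genes tested had positive slopes on Myc. Of 56 ribosome biogenesis genes 47 had a positive slope on Myc, at a median of 0.16 beside 0.02 for all genes. Without X154T 44 did, at a median of 0.34 beside 0.11. The largest slope of the list was that of Rrp9, 0.45 ± 0.13 (SE, adjusted p = 0.627), then Mrto4 and Bop1, both of the large ribosomal subunit's assembly, at 0.34 and 0.32. For ribosomal proteins 44 of 81 were positive at a median of 0.00463, and for proliferation 24 of 35 at 0.07. Cdt1, which licenses replication, had 0.30 ± 0.15 (SE, adjusted p = 0.763) and Mki67 -0.20 ± 0.24 (SE, adjusted p = 0.88). Of the Myc-induced list 27 of 38 were positive at a median of 0.07, with Odc1 at 0.44 and Srm, spermidine synthase, at 0.38. Of the Myc-repressed list 9 of 12 were positive at a median of 0.06, and without X154T 3 of 12 at -0.35. Markers of other cell types and of stimulus response also moved with Myc without X154T, and their part in its slopes was not tested. The share of all genes with a positive slope was not counted for that fit, where their median slope was 0.11. All 17 macrophage genes then had positive slopes, at a median of 0.78, as did all 6 skeletal muscle genes (1.17) and all 4 hemoglobin genes (1.18). Of 28 immediate-early genes 3 were positive, at a median of -0.83, and of 10 luminal progenitor genes 2, at -0.57. None of these marker genes passed. Among cofactors, Zbtb17, whose product recruits Myc to genes it represses, had a slope of 0.28 ± 0.10 (SE, adjusted p = 0.747).

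By Spearman's rho over 23 tumors and 11890 genes, the gene whose pattern was most like that of Myc was Kctd10, with rho = 0.754, and Pabpc4 (0.746), Rbm38 (0.734) and Urgcp (0.729) were also among the most alike. The most opposite were 2610020H08Rik (-0.71), 2310035C23Rik (-0.697), Atrx (-0.694), Ythdf3 (-0.683) and Mtpap (-0.68). Kctd10 ran from 4.70 in X1463T2, where Myc was lowest too, to 6.32 in X92T. These rho values are descriptions across tumors of unknown depth.

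For Mycn, 6 genes rose (0.0498% of those tested) and none fell (0.0%), with 585 at an unadjusted p under 0.05. As Mycn was chosen for the few tumors that express it, these calls largely set X1418T and X149T2 against the rest and are a description. Crym, a thyroid hormone-binding crystallin gene, had a slope of 1.40 ± 0.15 (SE) and was at 5.63 in X149T2, 3.09 in X1418T and at most 1.5 elsewhere, and it passed the filter on mean FPKM only through these tumors. Slc2a3, a glucose transporter gene, was at 5.49 and 4.14 in these tumors and at most 2.56 in the others. Egflam, which encodes a matrix protein, was at 3.42 and 4.08, and Tfdp2, a partner of E2F factors, at 3.94 and 3.26. The last were Morf4l1, a chromatin protein gene, at 8.68 and 8.88 with a highest level of 7.64 elsewhere, and its pseudogene Morf4l1-ps1. Reads of these near-identical copies can be divided between them, so their separate values are uncertain. Leaving out each tumor in turn gave from 4 rising genes, without X149T2, to 29, without X1418T. Of the 6 genes 1, Crym, was among the 4, with a slope of 0.98 ± 0.13 (SE), and 3, Crym, Slc2a3 and Tfdp2, were among the 29. The slopes of the genes not called ran from 0.59 to 1.22 without X149T2 and from 0.63 to 1.19 without X1418T.

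Chosen after the values were seen, the genes at which X1418T and X149T2 were both above the other 21 tumors were counted by chromosome. There were 51 such genes, 0.424% of those tested. Chromosome 9 held 28 of them, 4.19% of its 668 genes tested, and no other chromosome more than 3. Of the 28, 25 began between 85.7 and 108.0 Mb, where 119 genes were tested. Besides Morf4l1 and Tfdp2 they included Ibtk (4.0 and 4.02 in X1418T and X149T2, at most 3.13 elsewhere), Atr, a checkpoint kinase gene (2.43 and 2.98, at most 1.88), Spsb4 (4.59 and 4.45, at most 3.08) and Copb2, of the vesicle coat (7.18 and 6.79, at most 6.41). Zw10, of the spindle checkpoint, was at 5.16 and 4.87 and at most 3.93. Mycn itself is on chromosome 12, where 0 of 403 genes tested parted the tumors in this way. Its neighbour Fam49a did (3.05 and 1.30, at most 0.98 elsewhere) but, like Mycn, was under the filter on mean FPKM and not counted. In the other direction, X1418T and X149T2 were both below the other 21 tumors at 24 of the 12041 genes tested. Chromosome 8 held 10 of these among its 665 genes tested, and chromosome 9 held 4.

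**Figure D5:**
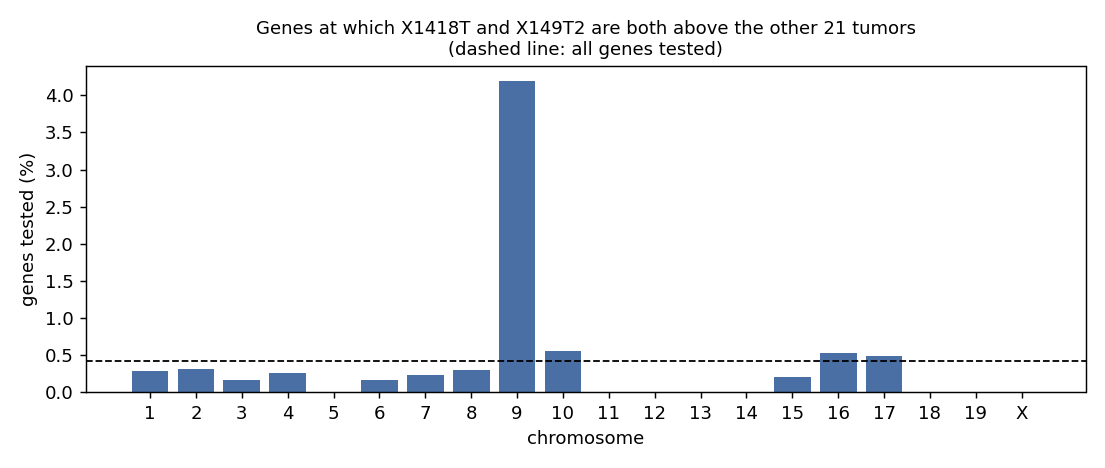
Percentage of the tested genes of each chromosome (x axis) at which X1418T and X149T2, the tumors expressing Mycn, are both above the other 21 tumors (y axis; the dashed line is 0.424% over all genes). Chromosome 9 stands at 4.19%, and the next highest, chromosome 10, at 0.549%.

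By rho, Egflam (0.72), Bptf (0.713), Crym (0.687), Zcchc11 (0.662) and Scaf8 (0.66) were most like Mycn, and Tnfsf13b (-0.663), Frrs1 (-0.653), Aplnr (-0.637), Nfu1 (-0.637) and Rrp15 (-0.632) most opposite, with 15 tumors tied at 0. The median slope of all genes on Mycn was -0.03, and by chromosome 25.4% to 55.4% of the genes tested had positive slopes. All 17 macrophage genes had negative slopes on Mycn (median -0.59) and all 9 basal genes positive slopes (median 0.41). Of 28 immediate-early genes 27 had positive slopes, at a median of 0.45, and 0 of 6 skeletal muscle and 0 of 4 hemoglobin genes did, at -0.41 and -0.51. In a fit that also held the immediate-early score, 1 of 17 macrophage genes was positive, at a median of -0.30, and 3 of 4 hemoglobin genes, at 0.08. None of these genes passed the test, and their part in the slopes on Mycn was not tested. Of 81 ribosomal protein genes 7 had a positive slope, at a median of -0.125 beside -0.03 for all genes.

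For Max, 182 genes rose (1.51% of those tested) and 12 fell (0.0997%), but the median slope of all genes was 0.24, so most genes tended upward with Max. After each tumor was centred on its median the median slope was -0.03 and no gene passed (limma, 1194 at an unadjusted p under 0.05). With 1 tumor per title number none passed either (1494 at an unadjusted p under 0.05). Leaving out each tumor in turn gave from 5 rising genes, without X1310T1, X1463T2 or X520T, to 972 without X1515T. Acvrl1, a receptor gene of the TGF-beta family, rose with Max (slope 1.76 ± 0.27, SE, adjusted p = 0.00478) and was most like it by rho (0.874). Cptp (0.833), Ppm1a (0.828) and Tssc1 (0.824) were also among the most alike, and Lcorl (-0.772), Mettl10 (-0.738), Tnrc6a (-0.703), Smc5 (-0.694) and Wbp5 (-0.677) were most opposite. Ppm1a and Tssc1 lie on chromosome 12, as does Max. Chromosome 12 held 25 of the 182 rising genes (402 tested), beside 50 on chromosome 11 (997 tested), 27 on chromosome 4 (763) and 26 on chromosome 10 (546). With each tumor left out in turn Ppm1a passed in 0 of 23 fits and Tssc1 in 17.

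Among the 9 tested genes of the network list, Mlx rose with Max (1.42 ± 0.31, SE, limma, adjusted p = 0.031) and Mga fell (-1.37 ± 0.36, SE, adjusted p = 0.0496). Not all genes of this list encode partners of Max, and Mlx is listed for its pairing with Mlxip and Mlxipl. Neither gene passed after centring, where the slopes were 1.08 ± 0.38 (SE, adjusted p = 0.403) and -1.27 ± 0.55 (SE, adjusted p = 0.454). With each tumor left out in turn Mlx passed in 18 of 23 fits, at slopes from 1.3 to 1.55, and not without X1310T1, X1463T2, X147T, X493T2 or X520T. Mga passed in 7 of 23, at slopes from -1.52 to -1.23. The other 7 tested genes of the list did not pass, among them Mnt (0.59 ± 0.28, SE, adjusted p = 0.204) and Mxi1 (0.20 ± 0.27, SE, adjusted p = 0.681). By chromosome 32.3% to 79.7% of all genes tested had positive slopes on Max. No gene of the ribosome biogenesis, ribosomal protein or proliferation lists passed. Their positive slopes were 42 of 56, 24 of 81 and 16 of 35, at medians of 0.44, -0.19 and -0.05, beside 0.24 for all genes. After centring these were 28 of 56, at a median of -0.000892, 5 of 81, at -0.45, and 3 of 35, at -0.73. All 17 macrophage genes had positive slopes, at a median of 1.96, while 3 of 28 immediate-early genes did, at a median of -1.52. After centring they were 17 of 17, at 1.33, and 5 of 28, at -0.58, and none of these genes passed. Their part in the slopes on Max was not tested.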

How the data were processed

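RNA-seq of 23 primary mammary tumors was examined. The authors deposited 1 table of log2(FPKM + 1) for 14535 gene symbols. The submitters' processing notes name Trimmomatic 0.35, TopHat2 2.0.13, Cufflinks 2.2.1 and the build mm10, while the study's methods name another TopHat release. The sources used here do not state the strandedness. FPKM keeps neither counts nor depth, so no counting interval is given. No column was left out. Symbols were matched to GENCODE mouse release 21 on GRCm38, the assembly of mm10: 13982 directly, 434 by an older symbol, 119 not.

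The 12041 genes whose FPKM averaged at least 1 were tested. The pseudocount of 1 understates the change of low genes. Slopes on Myc, Mycn and Max were fitted with limma 3.58.1 (trend, two-sided) in R 4.3.3, with Benjamini-Hochberg adjustment at 0.05 over all genes tested, the predictor left out. With 1 unlabelled source per tumor, p-values reflect sample-to-sample spread, which may be partly technical. Relations were measured by r and rho with two-sided permutation tests of 100000 draws, exact in sets under 10, and adjusted over 18 relations. The list scores are means of z values. Promoter windows came from RefSeq. Scripts were tested on simulated data.

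The genes and 21 lists were chosen with earlier results of these data known. Named genes are the 3 members, their network partners, 10 neighbours on each side of Myc and Mycn, the 5 most and least alike by rho, short RNAs left out, up to 6 genes per list by size of slope, and the printed promoters, those of the 2 genes of the growth lists with the largest slope on Myc whose window holds CACGTG. Genes outside this rule, including those that passed a test or were highest or lowest in a tumor, were named after their values were seen. Some genes that the rule names are not reported here.

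Alternatives were a pseudocount of 0.1, median centring, no filter, the rank of the predictor, the immediate-early score as a covariate, median scores, and leaving out X154T, the 4 tumors of lowest Epcam, 1 tumor of each title pair, or each tumor in turn.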

Additional observations from a re-analysis of the deposited data

How the results depend on the processing

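No paired analysis was possible because the labels put all tumors in 1 group. The table holds no counts, so what depth limits is unknown. The number of genes called with each member depended on most settings, and why was not tested beyond the tumors named here. With Myc, 4 rose and 0 fell. These counts were 0 and 4 with a pseudocount of 0.1, 4 and 1 after median centring, 0 and 0 without X154T, 7 and 7 without the 4 tumors of lowest Epcam, 7 and 1 with 1 tumor per title number, 4 and 1 with the immediate-early covariate, 26 and 3 without a filter, and 0 and 0 (limma, 1575 at an unadjusted p under 0.05) by the rank of Myc. With Mycn, 6 rose and 0 fell. These counts were 1 and 0 with a pseudocount of 0.1, 18 and 1 after centring, 19 and 0 without the tumors of lowest Epcam, 38 and 1 without a filter and 1 and 0 by rank. With 1 tumor per title number, which drops X149T2, 4 rose, of which 1 was among the 6. With Max, 182 rose and 12 fell. These counts were 0 and 0 after centring, 148 and 7 without X154T, 14 and 0 without the tumors of lowest Epcam, 0 and 0 with 1 tumor per title number, 2 and 0 with the covariate and 5 and 0 by rank.

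Leaving out each tumor in turn gave 0 to 9 rising and 0 to 3 falling genes with Myc, 4 to 29 and 0 to 2 with Mycn, and 5 to 972 and 0 to 157 with Max. Without X154T the slope of Bfsp1 on Myc was -0.0332 and that of Plac1 -0.163, and over single tumors left out they ran from these values to 1.11 and 0.857.

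No relation passed the threshold under any alternative run, and some changed sign. With the immediate-early covariate r was 0.0152 for Mycn and proliferation and 0.0996 for Mycn and ribosome biogenesis. It was -0.255 for Mycn and epithelial genes without the tumors of lowest Epcam, -0.0171 for Max and ribosome biogenesis after centring, and 0.0342 for Myc and Mycn with 1 tumor per title number. Within the sets by immediate-early score, added after seeing the data, r was -0.427 for Myc and proliferation in the 8 tumors, and for Myc and ribosomal proteins it was -0.0581 in the 15 and 0.739 in the 8. With single tumors left out, r ran from -0.29 to 0.0129 for Max and ribosomal proteins, -0.108 to 0.216 for Max and proliferation, -0.233 to 0.0386 for Myc and Mycn, -0.011 to 0.131 for Myc and ribosomal proteins, -0.0739 to 0.0643 for Myc and epithelial genes, -0.0132 to 0.0645 for Mycn and Max, -0.428 to 0.0391 for Mycn and ribosomal proteins, and -0.378 to 0.213 for Mycn and proliferation. That of Myc and ribosome biogenesis kept its sign, from 0.415 to 0.476. Mycn was at an FPKM of 0.5 or more in 3 tumors and of 2 or more in 2. The counts of genes at which X154T, X520T, X1418T or X149T2 was the highest tumor stayed within 1.5 times without a filter and after centring.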
